A study of Mus musculus with 8 samples.

Results

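The liver X receptors LXRβ and LXRα, encoded by *Nr1h2* and *Nr1h3*, were examined together with their partner *Rxra* and 7 of their sterol and phospholipid targets in the livers of atherosclerosis-prone mice given isoginkgetin (ISOGK). The 10 genes were taken by symbol from a table of 16540 genes, and all 10 had a row. They were the receptor genes, *Rxra*, the sterol transporter genes *Abca1*, *Abcg1*, *Abcg5* and *Abcg8*, and *Mylip*, *Lpcat3* and *Pltp*.

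Liver RNA was sequenced from 4 male mice given vehicle (DMSO) and 4 male mice given ISOGK, a biflavonoid of *Ginkgo biloba* that the study describes as an inhibitor of ATP-citrate lyase (ACLY), with 1 library per mouse. Both groups carried the *Apoe*-/- genotype, which impairs the clearance of remnant lipoproteins, and both were fed a Western diet rich in cholesterol. Intraperitoneal ISOGK (20 mg/kg daily) or vehicle was given over 8 weeks, and the ages of the mice were not given in the labels. The libraries held 17457106 to 24461854 reads counted on genes.

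LXRs are nuclear receptors that are activated by oxysterols, the oxidized derivatives of cholesterol, and that bind DNA as heterodimers with the retinoid X receptor. When sterols accumulate they induce genes that move cholesterol out of cells and into bile, that remodel phospholipids, and, through *Srebf1*, that make fatty acids. In the liver, LXRα is the main form and links the cholesterol load to biliary excretion and lipogenesis.

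Counts were scaled to the size of each library with TMM factors and are given as CPM. A gene is described as called when its p-value from edgeR's quasi-likelihood test, adjusted over the 12307 genes tested, was under 0.05 at any fold change. Some libraries stood apart in their own groups. Vehicle mouse 4 had 82.5 CPM summed over 10 skeletal muscle markers, led by *Myh4*, while the other 7 libraries had 0 to 0.623 CPM. ISOGK mouse 4 differed most from its group, with a chi-square per gene of 81.0 to 93.4 against the other ISOGK mice, which differed from each other by 31.0 to 63.0. It had the lowest TMM factor (0.883), 5.34 CPM of the macrophage marker *Vsig4* against 75.05 to 94.4 CPM in the other ISOGK mice, and 16848 CPM of the hepatocyte gene *Fgb* against 6707 to 7042 CPM. Among the vehicle mice, pairs with mouse 1 had a chi-square per gene of 23.9 to 31.5, and the other pairs 17.1 to 24.8. The calls of *Abcg1* and *Abcg5* are therefore also given without vehicle mouse 1, vehicle mouse 4 or ISOGK mouse 4. *Apoe* transcripts were counted in every library (163 to 342 CPM), so the genotype rests on the labels. Their mean was higher with ISOGK, at 265 ± 57.5 CPM against 191 ± 22.6 CPM with vehicle (SD, n = 4), and the groups overlapped. The log2 fold change of *Apoe* was 0.47 (SE 0.15, edgeR adjusted p = 0.0740), so it was not called, and 2 of 16 alternatives called it. *Alb*, the most abundant of 9 hepatocyte markers, had 105235 to 141273 CPM in the 8 libraries.

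All 10 genes passed the filter on low counts, with between 389 and 11491 counts per library. *Abcg1* and *Abcg5* were called lower with ISOGK, and 0 of the 10 genes were called higher. The 2 calls among 10 compare with 7.55% of all genes tested, and with 3.44% called lower and 4.11% called higher. At an unadjusted p under 0.05, 5 of the genes were lower and 2 were higher (*Nr1h2* and *Lpcat3*), against 24.2% of all genes in either direction. The mice of the groups did not overlap for 5 of the 10 genes, lower in 4 and higher in 1, against 15.3% of all genes. The log2 fold change was negative for 8 of 10 genes with a median of -0.28, while 49.8% of all genes tested had a negative value and their median was 0.0018.

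**Figure D1:**
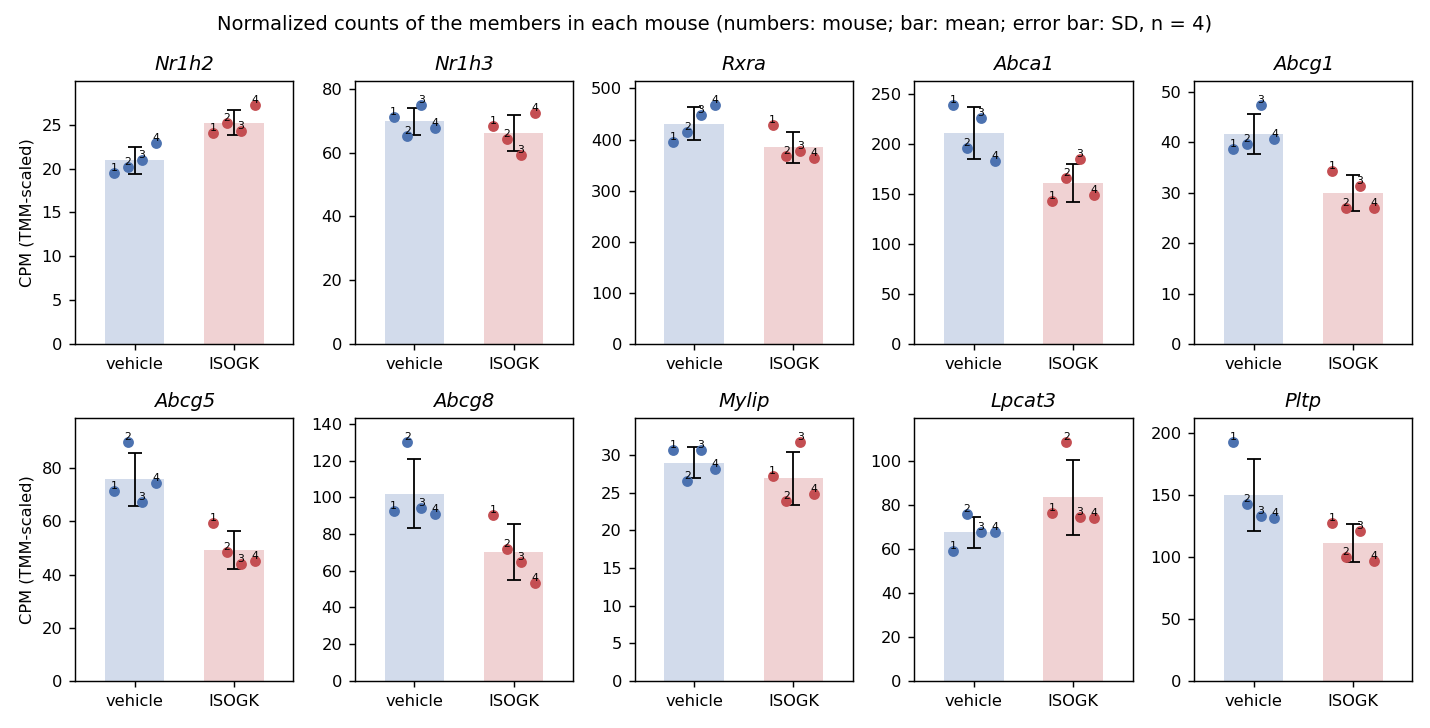
CPM (TMM-scaled) of each of the 10 genes in the vehicle and ISOGK groups; points are mice with their numbers, bars are means and error bars are SDs (n = 4 per group). The ISOGK mice lie below all vehicle mice for *Abcg1*, *Abcg5*, *Abcg8* and *Pltp* and above all of them for *Nr1h2*.

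The receptors were described first. *Nr1h3*, which encodes LXRα, had 71.3, 65.2, 74.9 and 67.8 CPM in vehicle mice 1 to 4 and 68.4, 64.3, 59.1 and 72.2 CPM in ISOGK mice 1 to 4. The values were interleaved, with 2 of the 4 ISOGK mice inside the vehicle range. Its log2 fold change was -0.08 (95% interval -0.28 to 0.12, edgeR adjusted p = 0.646). *Nr1h2*, the gene of the broadly expressed LXRβ, had 19.5, 20.2, 21.03 and 23.0 CPM in the vehicle mice and 24.1, 25.2, 24.3 and 27.2 CPM in the ISOGK mice. Every ISOGK mouse was above every vehicle mouse, but the difference was small and did not pass the test (log2 fold change 0.27, SE 0.09, edgeR adjusted p = 0.101).

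Because both receptor genes were counted in the same library, their ratio does not depend on how that library was scaled. *Nr1h3* had 3.65, 3.23, 3.56 and 2.95 times as many counts as *Nr1h2* in the vehicle mice and 2.84, 2.55, 2.43 and 2.65 times as many in the ISOGK mice. The ratio was lower in 4 of 4 ISOGK mice than in any vehicle mouse, a difference of -0.35 on the log2 scale (p = 0.0286 in an exact two-sided permutation test, the lowest value possible with groups of 4). Leaving out any single ISOGK mouse kept the direction but gave an exact p of 0.0571. Per kb of exon, the level of *Nr1h3* in vehicle mice (27.7 ± 1.69 CPM per kb, SD, n = 4) exceeded that of *Nr1h2* (6.24 ± 0.445 CPM per kb) in every mouse.

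*Rxra*, which encodes the retinoid X receptor that pairs with either LXR, had 395, 415, 447 and 468 CPM in the vehicle mice. The ISOGK mice had 429, 368, 377 and 365 CPM. Of these, 3 were below the vehicle range and ISOGK mouse 1 was inside it, and the log2 fold change of -0.17 had a 95% interval of -0.38 to 0.05 (edgeR adjusted p = 0.328).

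ABCA1 passes cholesterol and phospholipid to lipid-poor apolipoprotein A-I and so starts the formation of HDL. Its gene had 239, 195, 226 and 182 CPM in the vehicle mice. In the ISOGK mice the values were 143, 165, 185 and 149 CPM. All ISOGK mice but mouse 3 were below the vehicle range, and mouse 3 was just above vehicle mouse 4. The mean in the ISOGK group was 76.3% of that in the vehicle group, and the log2 fold change of -0.39 (SE 0.12) missed the threshold in edgeR (adjusted p = 0.0643). DESeq2 called *Abca1* lower (adjusted p = 0.0229), as did edgeR without ISOGK mouse 3 (log2 fold change -0.47, adjusted p = 0.0290). Over 16 alternatives its adjusted p ranged from 0.0229 to 0.171.

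ABCG1 moves sterols towards HDL and is prominent in macrophages. *Abcg1* (chr17:31057675-31117988, plus strand, GRCm38) had 38.7, 39.8, 47.4 and 40.6 CPM in the vehicle mice. It had 34.3, 26.9, 31.3 and 27.0 CPM in the ISOGK mice. The groups were separated, with ISOGK mouse 1 nearest to the vehicle range. The mean fell to 71.8% of that with vehicle, a log2 fold change of -0.48 (SE 0.11, 95% interval -0.71 to -0.24, edgeR adjusted p = 0.0216). Without vehicle mouse 4 it was -0.49 (edgeR adjusted p = 0.0473), and without ISOGK mouse 4 it was -0.43 (0.0463). Without vehicle mouse 1 it was -0.51 (edgeR adjusted p = 0.0374). That mouse was far above its group in some macrophage markers and far below it in *Clec4f*, as described below. The call was lost without vehicle mouse 2 (edgeR adjusted p = 0.0541), vehicle mouse 3 (0.0707) or ISOGK mouse 2 (0.0653), and over 16 alternatives the adjusted p ranged from 0.00216 to 0.0707.

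Markers of macrophages are given beside this gene, since bulk liver holds several cell types and a smaller number of cells cannot be told apart from less RNA per cell. Of 12 markers of Kupffer cells and macrophages, all tested, *Cd68* was called lower (log2 fold change -0.57, edgeR adjusted p = 0.00900), in each of 16 alternatives too, and 0 were called higher. This 1 call of 12 was near the 7.55% of all genes. At an unadjusted p under 0.05 in edgeR, 2 of the 12 were lower and 0 higher, against 24.2% of all genes in either direction. Values were negative for 10 of the 12 markers, with a median log2 fold change of -0.27, against 49.8% of all genes tested. *Marco* (-1.40), *Timd4* (-0.92), *Adgre1* (-0.78) and *Vsig4* (-0.51) had lower values than *Abcg1*, were not called, and depended strongly on 1 mouse each. Vehicle mouse 1 was far above the other vehicle mice in the first 3 (170 against 18.6 to 57.6 CPM in *Marco*), and without it their values were -0.51, -0.42 and -0.33. Without ISOGK mouse 4 that of *Vsig4* was -0.13. The 2 markers with positive values were *Itgam* (0.18) and *Clec4f* (0.06), and neither was called. In *Clec4f*, vehicle mouse 1 was far below the other vehicle mice (73.0 against 193 to 231 CPM). Without vehicle mouse 1 the log2 fold change of *Clec4f* was -0.20. The summed level of all 12 markers was 1423, 1171, 1350 and 1053 CPM in vehicle mice 1 to 4 and 1157, 915, 1103 and 899.7 CPM in ISOGK mice 1 to 4, so that the groups overlapped. *Lyz2*, the most abundant of the 12, had 294 ± 42.3 CPM (SD, n = 4) with vehicle and 252 ± 14.8 CPM with ISOGK (log2 fold change -0.22, edgeR adjusted p = 0.257). None of the 12 was at 0 in any library, and their part in the difference of *Abcg1* was not tested.

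*Abcg5* and *Abcg8* encode the subunits of a transporter that hepatocytes use to excrete cholesterol into bile. *Abcg5* (chr17:84658234-84683011, minus strand) had 71.5, 90.0, 67.2 and 74.5 CPM in the vehicle mice. It had 59.5, 48.7, 43.8 and 45.0 CPM in the ISOGK mice. Every ISOGK mouse was below every vehicle mouse, and vehicle mouse 2 was the highest. The mean fell to 65.0% of that with vehicle, the largest fall among the 10 genes, its log2 fold change being -0.62 (SE 0.12, 95% interval -0.89 to -0.36, edgeR adjusted p = 0.0109). It was called in all 16 alternatives, with adjusted p-values up to 0.0416, and without vehicle mouse 4 the log2 fold change was -0.63 (edgeR adjusted p = 0.0308). Without ISOGK mouse 4 it was -0.58 (edgeR adjusted p = 0.0269), and without vehicle mouse 1 it was -0.65 (0.0247).

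*Abcg8* (chr17:84676302-84700333, plus strand) had 92.8, 130.3, 93.9 and 91.2 CPM in the vehicle mice and 90.1, 71.8, 65.0 and 53.4 CPM in the ISOGK mice. Vehicle mouse 2 was far above the other vehicle mice, and ISOGK mouse 1 came within about 1 CPM of the lowest of them. The log2 fold change of -0.54 was close to that of *Abcg5* but had a larger SE of 0.16 and was not called by edgeR (adjusted p = 0.0699). It passed with DESeq2 (adjusted p = 0.0232) and in edgeR without ISOGK mouse 1 (log2 fold change -0.69, adjusted p = 0.0200), while without vehicle mouse 2 it was -0.40 (adjusted p = 0.183). Over 16 alternatives the adjusted p lay between 0.0200 and 0.183.

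The counts of *Abcg8* were 1.30, 1.45, 1.40 and 1.22 times those of *Abcg5* in the vehicle mice and 1.51, 1.47, 1.48 and 1.19 times in the ISOGK mice. A difference in this ratio was not detected (0.07 on the log2 scale, two-sided exact permutation test, p = 0.486). Per kb of exon, the levels of *Abcg5* (28.0 ± 3.67 CPM per kb, SD, n = 4) and *Abcg8* (27.2 ± 5.03 CPM per kb) in vehicle mice differed by less than the spread between mice. The annotated exons of the 2 genes share 82 bases on opposite strands. Because the use of strand in counting was not stated, reads from those bases could have been given to either gene.

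The 2 genes lie on opposite strands and overlap, and the window between their start sites is shown because both had lower values in every ISOGK mouse. *Abcg8* has 2 annotated start sites, 1 at position 84676302 inside *Abcg5* and 1 at position 84683121. The latter is separated by 109 bases from the start of *Abcg5* at position 84683011, and from it the genes are transcribed away from each other. For this pair, windows from 250 bases before to 50 bases after each start share 209 bases. The window of *Abcg5* (chr17:84682962-84683261, minus strand, RefSeq, GRCm38.p6) is given 5′ to 3′, and capitals mark the 109 bases between these start sites.
Abcg5: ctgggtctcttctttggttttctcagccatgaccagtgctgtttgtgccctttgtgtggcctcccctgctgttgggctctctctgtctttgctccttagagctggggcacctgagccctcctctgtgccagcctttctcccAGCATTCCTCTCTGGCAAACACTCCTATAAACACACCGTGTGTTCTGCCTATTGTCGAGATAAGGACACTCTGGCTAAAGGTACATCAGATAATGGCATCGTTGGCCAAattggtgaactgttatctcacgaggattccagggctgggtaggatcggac

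*Abca1* and 2 lipogenic genes carried a similar stretch in their windows. LXR and RXR bind a pair of AGGTCA half-sites in direct repeat with 4 bases between them, a DR4 element. Both strands of each window were searched for the 12 letters of the pair with at most 3 mismatches, a loose search that finds a match in 21.9% of all 32851 windows of this length. A match was found in 2 of 12 windows from 9 of the 10 genes, those of *Abca1* and of the second start site of *Rxra*, and in 6 of 16 windows from the lipogenic genes described below. *Abcg1* had no window and was not searched. With at most 2 mismatches, 3.02% of all windows, 0 of the 12 and 0 of the 16 had a match. The windows of *Abca1* (chr4:53159846-53160145), *Srebf1* (its start site at position 60210471, chr11:60210422-60210721) and *Fasn* (chr11:120824498-120824797), all on the minus strand (RefSeq, GRCm38.p6), are given with the match in capitals.
Abca1: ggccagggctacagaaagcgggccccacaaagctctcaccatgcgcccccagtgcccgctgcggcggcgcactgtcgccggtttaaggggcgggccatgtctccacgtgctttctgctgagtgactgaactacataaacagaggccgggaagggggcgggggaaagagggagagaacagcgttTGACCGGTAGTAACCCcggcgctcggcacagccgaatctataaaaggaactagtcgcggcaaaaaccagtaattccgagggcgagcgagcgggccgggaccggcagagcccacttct
Srebf1: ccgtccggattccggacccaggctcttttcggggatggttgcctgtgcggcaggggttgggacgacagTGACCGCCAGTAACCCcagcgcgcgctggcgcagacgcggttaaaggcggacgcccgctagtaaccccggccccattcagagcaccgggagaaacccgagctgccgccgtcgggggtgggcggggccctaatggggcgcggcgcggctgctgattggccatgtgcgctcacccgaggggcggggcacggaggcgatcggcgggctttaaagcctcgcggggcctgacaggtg
Fasn: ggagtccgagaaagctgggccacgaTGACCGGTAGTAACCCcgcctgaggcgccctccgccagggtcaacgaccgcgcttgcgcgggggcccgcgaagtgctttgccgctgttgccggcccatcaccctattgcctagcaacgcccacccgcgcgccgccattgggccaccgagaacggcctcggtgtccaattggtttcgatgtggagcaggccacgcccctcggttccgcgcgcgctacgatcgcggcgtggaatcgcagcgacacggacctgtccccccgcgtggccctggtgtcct

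The match starts 67 bases before the start site in *Abca1*, 182 bases before it in *Srebf1* and 225 bases before it in *Fasn*. Read on the opposite strand it is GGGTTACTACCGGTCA in *Abca1* and *Fasn* and GGGTTACTGGCGGTCA in *Srebf1*. The *Abca1* window also holds an E-box, CACGTG, at -147 from the start, a motif present in 7.15% of all windows. A match describes the letters of a window and does not show that a receptor bound there. Whether genes with a match changed more than others was not tested. Of the lipogenic genes called lower, *Srebf1*, *Fasn* and *Acly* had a match, *Acaca*, *Elovl6*, *Mlxipl* and *Thrsp* had none, and *Scd2* had no window. In *Srebf1* the match was in the window of the start site at position 60210471, while the windows of its start sites at 60222581 and 60220627 had none. The other lipogenic genes with a match were *Me1* (log2 fold change 0.30, not called), *Lpin1* (-1.11, not called) and *Pnpla3* (not tested). *Abca1* (-0.39) was called lower by DESeq2 but not by edgeR, and *Rxra* (-0.17) was not called.

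Of the remaining genes, *Pltp* encodes the phospholipid transfer protein of plasma. It had 193, 143, 134 and 132 CPM in the vehicle mice and 128, 100.3, 121 and 96.6 CPM in the ISOGK mice. All ISOGK mice were below all vehicle mice, by a narrow margin, and vehicle mouse 1 was the highest. Its log2 fold change of -0.43 (SE 0.14) did not pass in edgeR (adjusted p = 0.0818) and passed in DESeq2 (adjusted p = 0.0451), and over 16 alternatives the adjusted p ranged from 0.0410 to 0.211. Without vehicle mouse 1 the log2 fold change was -0.29 (edgeR adjusted p = 0.211).

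LPCAT3 incorporates polyunsaturated fatty acids into membrane phospholipids. *Lpcat3* had 58.9, 75.9, 67.6 and 67.9 CPM in the vehicle mice and 76.5, 108.8, 74.5 and 74.0 CPM in the ISOGK mice. ISOGK mouse 2 was far above the other ISOGK mice, and vehicle mouse 2 was also the highest of its group. The log2 fold change was 0.30 (95% interval 0.01 to 0.59, edgeR adjusted p = 0.190), and without ISOGK mouse 2 it was 0.15 (edgeR adjusted p = 0.456). *Mylip*, which encodes the ubiquitin ligase IDOL that degrades the LDL receptor, lay between 26.5 and 30.7 CPM with vehicle and between 23.9 and 31.8 CPM with ISOGK (log2 fold change -0.11, edgeR adjusted p = 0.585).

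Some exons of these genes also overlap other genes. Exons of *Pltp* share 495 bases (19.3% of its exonic length) with *Ctsa*, and those of *Lpcat3* share 334 bases (10.2%) with *Emg1*, both on the opposite strand. *Nr1h3* shares 34 bases (1.35%) with the transcript *Gm13783* on its own strand. How reads from those bases were assigned was not stated.

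**Figure D2:**
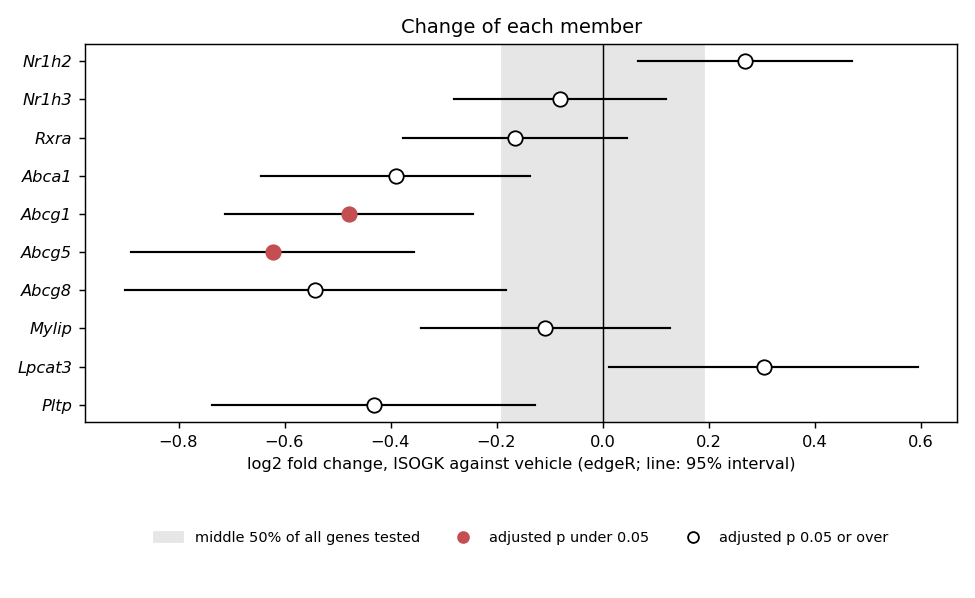
Log2 fold change of each gene, ISOGK against vehicle, from edgeR (point) with its 95% interval (line); filled points have an adjusted p under 0.05, and the grey band holds the middle 50% of all genes tested (-0.19 to 0.19). *Abcg1* (-0.48) and *Abcg5* (-0.62) are filled, and the intervals of *Nr1h3*, *Rxra* and *Mylip* include 0.

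Across tools, the direction of each of the 10 log2 fold changes was the same in all 16 alternatives, while the number of calls was not. DESeq2 called 5 of 10 genes lower, *Abca1*, *Abcg8* and *Pltp* beside *Abcg1* and *Abcg5*, against 10.7% of all genes it tested. Scaling by library size alone shifted the median of all genes by -0.13 and called the same 5, against 8.66% of all genes. Relative to the shifted median, the log2 fold changes were -0.39 for *Abca1*, -0.48 for *Abcg1*, -0.62 for *Abcg5*, 0.27 for *Nr1h2* and 0.30 for *Lpcat3*. With that scaling the calls over all genes were 262 higher and 804 lower, compared with 506 higher and 423 lower with TMM factors.

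**Figure D3:**
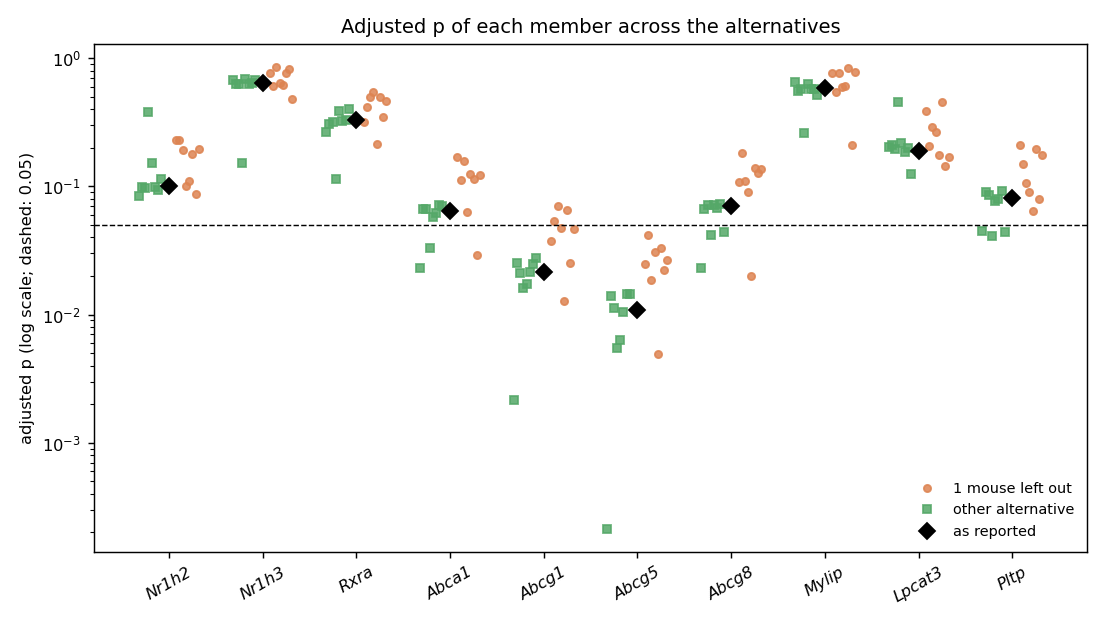
Adjusted p (log scale) of each gene as reported (diamonds), in 8 fits that each left out 1 mouse (circles) and in 8 other alternatives (squares); the dashed line is 0.05. All points of *Abcg5* are under the line, *Abcg1* crosses it in 3 of the fits without a mouse, and *Abca1*, *Abcg8* and *Pltp* have points on both sides.

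Per kb of exon in vehicle mice, *Rxra* had the highest level (79.0 ± 5.95 CPM per kb, SD, n = 4), followed by *Pltp* (58.7 ± 11.4 CPM per kb), whose highest mouse reached the range of *Rxra*. *Abcg5*, *Nr1h3* and *Abcg8* came next with levels of 28.0, 27.7 and 27.2 CPM per kb, which did not differ beyond their spread. *Lpcat3* (20.7 ± 2.13 CPM per kb) and *Abca1* (20.3 ± 2.52 CPM per kb) overlapped as well. *Mylip* (8.97 ± 0.634 CPM per kb) was lower and stood apart from its neighbours, and *Nr1h2* (6.24 CPM per kb) and *Abcg1* (5.70 ± 0.537 CPM per kb) were the lowest and overlapped. With ISOGK, the level of *Abcg1* was 4.10 ± 0.492 CPM per kb and that of *Nr1h2* was 7.52 ± 0.429 CPM per kb, and the mice of these genes no longer overlapped.

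**Figure D4:**
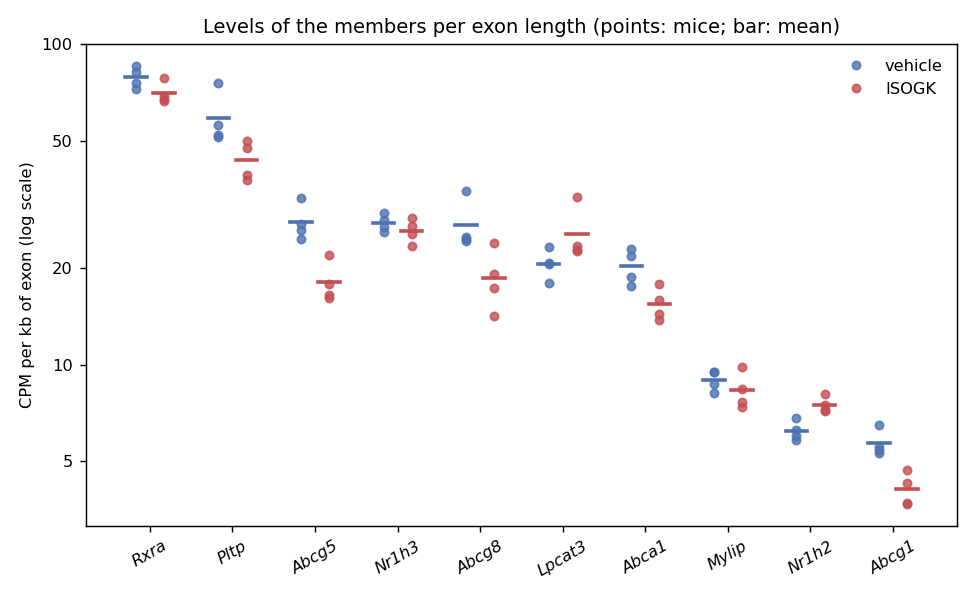
Level of each gene in CPM per kb of exon (log scale), in order of the vehicle mean; points are mice (n = 4 per group) and bars are means. *Rxra* and *Pltp* lead, and *Abcg1* is at the end of the order, with 5.70 CPM per kb in vehicle and 4.10 in ISOGK mice.

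Other genes of the pathway were compared through 6 lists with 81 tested genes in all, of which 13 were called lower and 2 higher. Of all genes tested, 3.44% were called lower and 4.11% higher, and the differences between lists were not tested. Of the lipogenic genes downstream of LXR and SREBP1c, 8 of 15 tested genes (53.3%) were called lower and 0 higher, with a median log2 fold change of -0.71. Of the 15, 12 had negative and 3 positive values. At an unadjusted p under 0.05, 9 were lower and 2 higher, and the latter, *Elovl5* (0.87, edgeR adjusted p = 0.0570) and *Me1* (0.30, 0.0774), had ISOGK mice above all vehicle mice. DESeq2 called 9 lower and 2 higher, and limma-voom 8 lower and 1 higher. *Mlxipl*, the gene of the carbohydrate-responsive factor ChREBP, had a log2 fold change of -1.12 (SE 0.13, edgeR adjusted p = 0.000908). For *Fasn*, which encodes fatty acid synthase, the mice had 118, 90.5, 141 and 103 CPM with vehicle and 50.4, 55.2, 63.9 and 48.3 CPM with ISOGK (log2 fold change -1.06, edgeR adjusted p = 0.00163).

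*Srebf1*, a direct LXR target that encodes SREBP1, had 47.7, 67.9, 81.5 and 78.7 CPM with vehicle and 20.6, 34.0, 16.8 and 19.3 CPM with ISOGK. The highest ISOGK mouse was below the lowest vehicle mouse, and the mean was 32.9% of that with vehicle (log2 fold change -1.60, edgeR adjusted p = 0.00592). *Acly*, the stated target of ISOGK, fell by 0.60 on the log2 scale (SE 0.10, edgeR adjusted p = 0.00591), to 66.2% of the vehicle mean. All 4 of these genes were called in each of the 16 alternatives. The falls of *Srebf1* and *Fasn* were larger than those of the transporter genes in size, although the difference between genes was not tested.

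**Figure D5:**
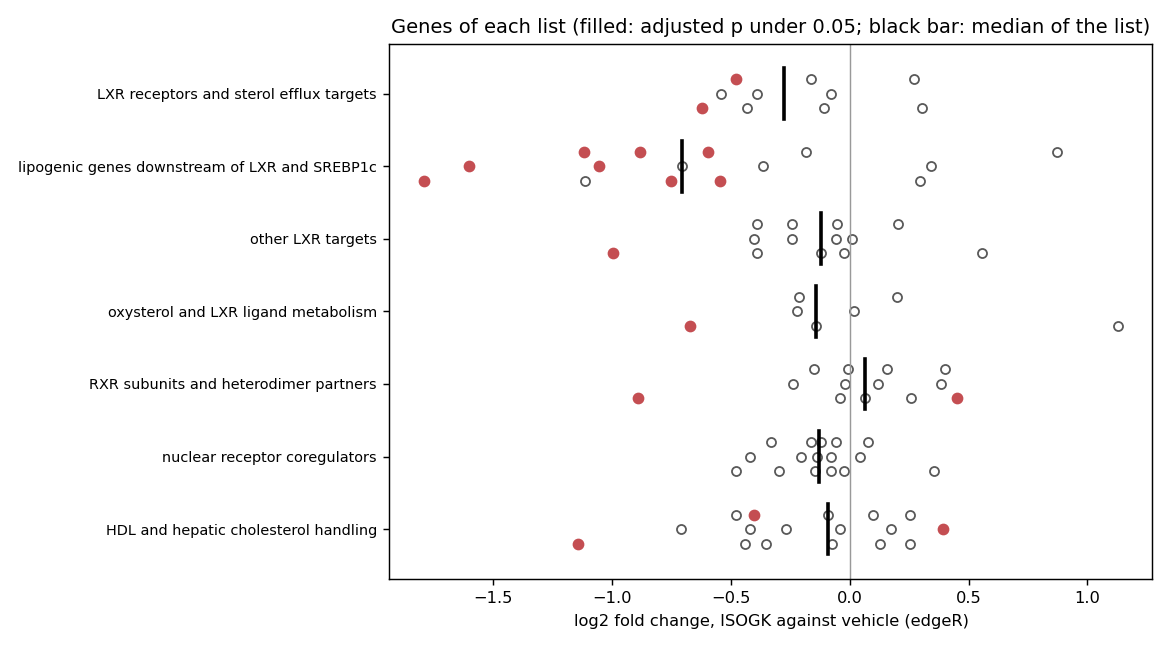
Log2 fold change (ISOGK against vehicle, edgeR) of each tested gene of the 10 genes described here and of the 6 lists; filled points have an adjusted p under 0.05 and black bars are medians. The lipogenic list has a median of -0.71 with 8 filled points, all negative, and the medians of the other 5 lists lie between -0.14 and 0.06.

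Among 13 other LXR targets, all tested, 1 was called. This was *Lpl*, the lipoprotein lipase gene, which fell from 87.6 ± 6.18 to 44.0 ± 12.6 CPM (SD, n = 4; log2 fold change -0.995, SE 0.18, edgeR adjusted p = 0.00951), and without vehicle mouse 4 the value was -0.95 (0.0313). The median of that list was -0.12, and its share of calls (7.69%) was near the 7.55% of all genes. *Cyp7a1*, the gene of the first enzyme of bile acid synthesis and an LXR target in mice, had a log2 fold change of -0.39 with a wide SE of 0.42 (edgeR adjusted p = 0.626).

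Of the genes that make or remove oxysterols and other LXR ligands, 7 of 10 were tested and *Cyp51*, a gene of cholesterol synthesis, was called lower (14.3% of those tested). It had 28.8, 43.6, 35.9 and 45.1 CPM with vehicle and 22.0, 26.9, 24.1 and 23.4 CPM with ISOGK (log2 fold change -0.67, edgeR adjusted p = 0.0128). The call was lost without vehicle mouse 2 (edgeR adjusted p = 0.0524) and held without vehicle mouse 4 (0.0399). *Cyp7b1*, which encodes an oxysterol hydroxylase, had the largest positive value of the list (log2 fold change 1.13, SE 0.34), with an edgeR adjusted p of 0.0889. DESeq2 and limma-voom each called 1 gene of this list higher and 1 lower.

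RXR also pairs with other nuclear receptors, and of 13 tested genes for RXR subunits and such partners 1 was called higher and 1 lower (15.4%). *Thrb*, the thyroid hormone receptor β gene, fell by 0.89 on the log2 scale (edgeR adjusted p = 0.00815), from 26.9 ± 3.83 to 14.5 ± 3.32 CPM (SD, n = 4), and was called in all 16 alternatives. *Nr1i3*, which encodes the xenobiotic receptor CAR, rose from 74.5 ± 6.35 to 102 ± 16.7 CPM (log2 fold change 0.45, edgeR adjusted p = 0.0415). That call held in 9 of 16 alternatives and failed with library size alone (edgeR adjusted p = 0.153) and without any 1 of the 4 vehicle mice or of ISOGK mice 3 and 4 (0.0553 to 0.125). *Rxrb* and *Rxrg* had log2 fold changes of -0.0065 and 0.12, and neither was called.

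Of 16 nuclear receptor coregulators 0 were called by edgeR or limma-voom. At an unadjusted p under 0.05 in edgeR 3 were lower, against 24.2% of all genes in either direction. DESeq2 called 2 of the 16, against 10.7% of all genes it tested. The coactivator gene *Ncoa2* had a log2 fold change of -0.30 (SE 0.09, edgeR adjusted p = 0.0713), and its ISOGK mice were below all vehicle mice.

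In the list of HDL and hepatic cholesterol handling, 17 genes were tested, with 2 called lower and 1 higher (17.6%) and a median log2 fold change of -0.09. *Stard4*, which encodes a carrier of sterols within the cell, fell to 45.3% of the vehicle mean (log2 fold change -1.14, SE 0.21, edgeR adjusted p = 0.0110) and was called in all 16 alternatives. *Lipc*, the hepatic lipase gene, fell by 0.40 on the log2 scale (edgeR adjusted p = 0.0299), and *Nceh1*, which encodes a cholesteryl ester hydrolase, rose by 0.39 (edgeR adjusted p = 0.0347). The call of *Lipc* failed without any 1 of the 4 vehicle mice or of ISOGK mice 2 and 4 (edgeR adjusted p 0.0577 to 0.0922). That of *Nceh1* failed without any 1 of vehicle mice 2 to 4 or of ISOGK mice 2 to 4 (edgeR adjusted p 0.0521 to 0.110), with library size alone (0.125) and with a replicate block (0.0683). *Apoa1*, which supplies the acceptor of ABCA1-dependent efflux, differed by 0.10 on the log2 scale (edgeR adjusted p = 0.604).

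The genes outside the 10 whose log2 CPM was most like that of a receptor or transporter gene were sought by Pearson's r over the 8 mice, as a description. For *Nr1h3* these were *Imp4* (r = 0.980) and *Phtf2* (r = 0.965), and for *Abca1* they were *Kmt2e* (r = 0.994) and *Swap70* (r = 0.988), none of which was called. *Slc22a18* (r = 0.982) and *Zfp329* (r = 0.978) were most like *Abcg5*. *Slc22a18* was called lower (log2 fold change -0.33, edgeR adjusted p = 0.0369), although that call failed in 7 of 8 cases when 1 mouse was removed, and *Zfp329* was not called. These r values include the difference between the groups and were the highest of all genes tested.

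Markers of the other cell types of the liver gave 1 edgeR call. Of 9 hepatocyte, 9 endothelial and 9 stellate cell and fibroblast markers, 0 were called by edgeR. In each list 1 had an unadjusted p under 0.05, higher in the first list and lower in the others, against 24.2% of all genes. DESeq2 called 1 hepatocyte marker higher and 1 stellate cell marker lower, against 10.7% of all genes it tested. With limma-voom 0 were called in these lists. The most abundant endothelial marker, *Stab2*, had 84.8 ± 9.53 CPM (SD, n = 4) with vehicle and 78.4 ± 7.55 CPM with ISOGK, and *Dcn* of the stellate cell list had 198 ± 25.03 and 217 ± 48.8 CPM. Values were negative for 1 of 9 hepatocyte, 6 of 9 endothelial and 7 of 9 stellate cell markers, with medians of 0.07, -0.06 and -0.09. Of 5 cholangiocyte markers *Sox9* was called higher (log2 fold change 0.51, edgeR adjusted p = 0.0494), a call that was lost without any 1 of the 8 mice (0.0745 to 0.140) and held in 4 of 16 alternatives. All 5 had positive values with a median of 0.61, 4 had an unadjusted p under 0.05, and DESeq2 called 2 and limma-voom 1. The summed level of the 5 was 27.5 to 34.8 CPM with vehicle and 28.2 to 69.1 CPM with ISOGK. *Spp1*, the most abundant of them, had 23.95 ± 3.43 CPM and 36.6 ± 14.1 CPM (edgeR adjusted p = 0.188). Lymphocyte markers, led by *Nkg7*, summed to 1.43 to 4.76 CPM in the 8 libraries, and of 5 adipocyte markers *Cfd* alone was counted, at 0.0791 to 0.581 CPM. What part these cells have in the values of the 10 genes was not tested.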

How the data were processed

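RNA-seq libraries had been made from liver RNA of 4 vehicle-treated and 4 ISOGK-treated mice. The authors aligned single-end reads with HISAT2 (mm10 in the submitters' processing notes) and deposited raw counts per gene symbol from StringTie, without normalization; the use of strand and the annotation release were not stated. Columns named for DMSO were taken as the vehicle mice, since DMSO was the injected vehicle.

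Genes were filtered with filterByExpr (minimum count 10, total 15), scaled with TMM factors, and tested with the robust quasi-likelihood test of edgeR 4.0.16 in R 4.3.3, without a block for replicate number, with Benjamini-Hochberg adjustment over all genes tested. DESeq2 1.42.0 and limma-voom (limma 3.58.1), other scalings and filters, a replicate block and fits without each mouse were the alternatives. The scripts were tested on simulated data. Read counts without molecular identifiers are not independent molecules. The libraries held 17457106 to 24461854 counts. Pairs of libraries of one group differed by a chi-square per gene of 17.1 to 31.5 (vehicle) and 31.0 to 93.4 (ISOGK), where sampling noise alone gives 1, so intervals rest on the spread between mice. The common biological coefficient of variation was 0.164.

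The members and lists were chosen with earlier results of these data known. Named from each list were the called genes (at most 4 with the smallest adjusted p, or the 2 smallest p where 0 were called), the 2 genes most like *Nr1h3*, *Abca1* and *Abcg5*, the most abundant marker of each cell type, *Apoe* and *Acly*. Genes outside that rule (*Cyp7a1*, *Cyp7b1*, *Rxrb*, *Rxrg*, *Apoa1*, *Elovl5*, *Me1*, *Lpin1*, *Pnpla3*, *Fgb*, *Cd68*, *Marco*, *Timd4*, *Adgre1*, *Vsig4*, *Itgam*, *Clec4f*, *Sox9* and the remaining called lipogenic genes) were named after their values were seen. A gene that the rule names among the coregulators is not reported. Ratios used 0.5 added to each count. Exon lengths and overlaps came from GENCODE M21 (GRCm38) and promoter windows from RefSeq (GRCm38.p6), which matched 9 of the 10 genes.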

Additional observations from a re-analysis of the deposited data

Results flagged for a closer look

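In 98 groups of 4 mice examined, 9 values stood far from the other 3 mice of their group, where chance gives about 1 in 20 groups. *Abcg8* had 130.3 CPM in vehicle mouse 2, against 91.2 to 93.9 CPM in the other vehicle mice, and *Lpcat3* had 108.8 CPM in ISOGK mouse 2, against 74.0 to 76.5 CPM. The ratio of *Abcg8* to *Abcg5* counts was 1.19 in ISOGK mouse 4 and 1.47 to 1.51 in the other ISOGK mice.

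Skeletal muscle markers summed to 82.5 CPM in vehicle mouse 4 and to at most 0.623 CPM in the other vehicle mice, and their most abundant gene, *Myh4*, had 20.1 CPM there and 0 in the others. The same sum was 0.226 CPM in ISOGK mouse 3 and 0.528 to 0.589 CPM in the other ISOGK mice. The values of *Abcg1* and *Abcg5* without vehicle mouse 4 are given beside their calls.

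Among the other named genes, *Stard4* had 58.2 CPM in vehicle mouse 3 against 35.96 to 38.2 CPM, *Slc22a18* had 68.1 CPM in vehicle mouse 2 against 61.0 to 61.7 CPM, and *Nkg7* had 1.81 CPM in ISOGK mouse 1 against 0.367 to 0.565 CPM.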

How the results depend on the processing

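With DESeq2, 1397 genes were called over the whole table in place of 929, 25 in place of 15 on the pathway lists, and 5 in place of 2 among the LXR receptors and targets; the same 5 were called with library size alone. The replicate numbers did not pair the mice (r of same-numbered deviations -0.014 to 0.085), and with the replicate block 4 of the 10 genes were called (*Abcg1*, *Abcg5*, *Abcg8* and *Pltp*). The fit with that block called 827 of all 12307 genes tested. Leaving out each mouse in turn gave 379 to 1235 calls over all genes, 10 to 16 on the lists and 1 to 3 among the 10 genes, with 1 without vehicle mouse 2, vehicle mouse 3 or ISOGK mouse 2. In these fits fewer mice were compared.

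Scaling by library size alone, which shifted the median of all genes by -0.13, gave list medians of -0.82 for lipogenic genes, -0.25 for other LXR targets, -0.28 for oxysterol metabolism, -0.062 for RXR partners, -0.25 for coregulators and -0.22 for HDL and cholesterol handling. With each mouse left out, the medians ranged from -0.83 to -0.60, -0.20 to -0.065, -0.21 to -0.012, 0.01 to 0.14, -0.22 to -0.07 and -0.24 to -0.054 in the same order. The ratio of *Nr1h3* to *Nr1h2* differed by -0.41 to -0.31 on the log2 scale and that of *Abcg8* to *Abcg5* by 0.03 to 0.15; the exact p of the first was 0.0286 without a vehicle mouse and 0.0571 without an ISOGK mouse, and that of the second stayed above 0.05. Adding 2 in place of 0.5 added to each count left both on the same side of the threshold. For single genes among the 10, fits without a mouse ended 3 calls and added 2, and the other settings added 8 and ended 0. The cause of these changes was not tested.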
